A study of Takifugu obscurus with 9 samples.

Results

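Vimentin and 13 other features annotated as intermediate filament genes were followed in the kidney of obscure puffer (Takifugu obscurus), a fish whose kidney both filters blood and forms blood cells. Each feature stands for 1 gene and gathers transcripts assembled from the reads. The members are all features whose best protein match is a fish protein described as vimentin, desmin or a type I or type II keratin, 14 of 46444 features. They comprise 1 vimentin feature (vim), 2 desmin features, 8 type I keratin features and 3 type II keratin features. The vim feature was singled out because its level at 12 h was so far below that at 0 h, so its values are given as a description and carry no test. Thus vim was selected on its measured levels at 12 h and 0 h. The other members were chosen by annotation and not by their own levels, but with earlier results of these data known. Of the 14, 13 also carry the intermediate filament domain of the Pfam database, which 29 features of the table carry, and the exception is a keratin 8-like fragment of 386 nucleotides.

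Kidneys of 3-month-old fish were profiled by RNA sequencing in 9 libraries, with 3 libraries at 0 h labelled as controls and 3 each from fish given poly(I:C), a man-made mimic of viral double-stranded RNA, 12 h and 48 h earlier. All libraries are labelled as kidney, and no genotype or strain beyond the species is given. Whether the controls were injected is not given, and the samples include no untreated fish at 12 h or 48 h, so time and treatment cannot be told apart. Whether the 3 libraries of a group came from separate fish is not given either, so the p-values rest on a spread between libraries that may be technical.

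Intermediate filaments are rope-like polymers that give cells mechanical strength. Vimentin forms them in mesenchymal, endothelial and blood-derived cells, desmin in muscle cells, and keratins in epithelia, where a type I and a type II keratin must pair to build a filament. In the kidney, keratin 8 and keratin 18 are the usual pair of simple epithelia such as tubules and ducts, and vimentin is known from podocytes, vessels and the interstitium, mostly from work in mammals.

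Values are TPM, transcript abundance corrected for feature length and scaled to a common library total, so levels of different features can be compared. Differences between groups are differences of mean log2(TPM + 1), which understate the change of features near 1 TPM, and were tested with limma across the 45473 features that reached 1 TPM in at least 3 libraries. A feature is called when its Benjamini-Hochberg adjusted p over those features is under 0.05. No read counts came with the table, but low values lie on steps of 1 read, from which a depth of 25100000 to 32500000 reads per library was estimated on features over 600 nucleotides. Control libraries 1 and 2 were close to each other, with a Pearson correlation of 0.985 across 11329 features chosen by mean level alone. Control library 3 stood apart from both at 0.857 and 0.864. Counting noise was still exceeded between control libraries 1 and 2, with a median chi-square per degree of freedom of 1.74, where the remaining same-group pairs had 5.17 to 17.7. They were kept as 2 samples, but whether they are separate fish or preparations was not tested, and averaging them took the calls at 12 h against 0 h from 647 to 60. The 12 h library 3 lay between the other 12 h libraries for 70.6% of those 11329 features. Read as a blend of them, its best-fitting weights were 0.48 (library 1) and 0.52 (library 2). Such weights can be fitted to any 3 libraries, so they do not show a blend, and whether it is one was not tested. For the longer members, the 12 h difference is also given without control library 3 and with control libraries 1 and 2 averaged.

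The vim feature (TRINITY_DN20666_c0_g1, 2023 nucleotides, matched to vimentin of Takifugu rubripes) was at 14.56, 14.46 and 22.66 TPM in the controls. Its 12 h libraries held 1.87, 0.36 and 1.11 TPM, and its 48 h libraries 15.66, 25.90 and 18.61 TPM. All 3 libraries at 12 h were below every other library, and the 48 h libraries overlapped the controls. In bulk kidney RNA, fewer cells that express a gene and less of its RNA per cell cannot be told apart. The means were 17.2 ± 4.71, 1.11 ± 0.755 and 20.1 ± 5.27 TPM (SD, n = 3 each). On the log2 scale vim differed by -3.14 between 12 h and 0 h, by 0.21 between 48 h and 0 h and by 3.35 between 48 h and 12 h. The differences from 0 h share the controls, and those that involve 12 h share the 12 h libraries. Among all features tested, vim had the 18th lowest difference of 12 h from 0 h and the 10th highest of 48 h from 12 h.

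The 12 h levels of vim rest on few but countable reads. The steps between low values correspond to an estimated 63, 13 and 38 reads on vim at 12 h, against 427 to 804 in the controls and 558 to 879 at 48 h. One read on vim was worth 0.0262 to 0.0341 TPM, so the lowest of the 12 h levels was more than a single read. Leaving out any one library moved the 12 h difference within -3.40 to -2.86, including -2.94 without control library 3. Averaging control libraries 1 and 2 gave -3.25, and leaving out 12 h library 3 as well gave -3.28.

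Further vimentin features with a mammalian best match lie outside the membership rule but bear on the reading of vim. A feature from the same assembly cluster as vim, matched to human vimentin, was at 14.85, 5.09 and 5.15 TPM in the controls, 3.64, 1.44 and 1.23 TPM at 12 h and 1.89, 2.87 and 3.71 TPM at 48 h. Its highest level was in control library 1, which also carried the highest sum over the 524 features with a human best match, 2509 TPM against 627 to 1372 TPM in the other libraries. A shorter feature matched to mouse did not exceed 2.08 TPM. Summed over vim and both of these features, vimentin was at 30.39, 19.74 and 29.89 TPM in the controls, 7.39, 2.60 and 2.76 TPM at 12 h and 17.75, 29.83 and 22.73 TPM at 48 h. The 12 h libraries remained below all others in the sum, with a log2 difference from 0 h of -2.49, a choice of sum made after seeing the data. Which of these features come from puffer transcripts was not tested.

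**Figure D1:**
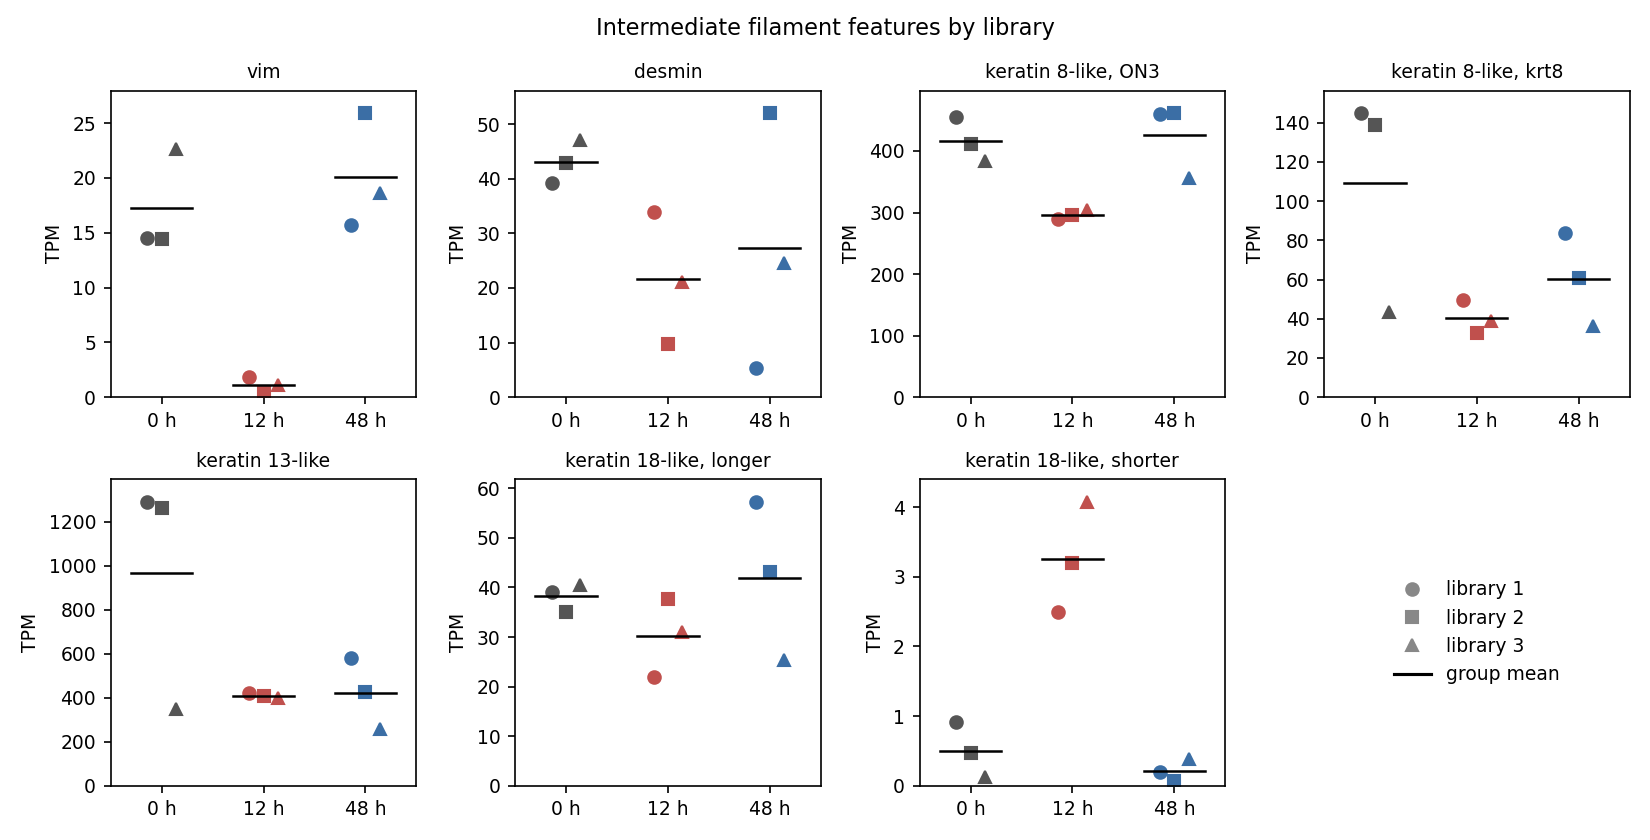
Level in TPM (vertical axes, linear and from 0) of the 7 longest members at 0 h, 12 h and 48 h, with each library as a point and the group mean as a line. The vim libraries at 12 h sit between 0.36 and 1.87 TPM, below all others, while keratin 13-like and the krt8 feature are high in control libraries 1 and 2 and not in control library 3.

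Desmin (TRINITY_DN17720_c0_g3, 2245 nucleotides), the intermediate filament of muscle and of some contractile vessel-wall cells, was at 39.20, 42.89 and 47.05 TPM in the controls. The 12 h libraries held 33.82, 9.74 and 21.11 TPM, and the 48 h libraries 5.26, 51.98 and 24.54 TPM. The 12 h libraries were all below the controls, and the 48 h libraries spread over a wider range than either. Its log2 difference from the controls was -1.12 at 12 h (SE 0.67, limma adjusted p 0.466) and -1.11 at 48 h (adjusted p 0.548), with a 95% interval of -2.63 to 0.39 at 12 h. The 12 h difference was -1.06 without control library 3 and -1.15 with control libraries 1 and 2 averaged, and it ranged from -1.51 without 12 h library 1 to -0.66 without 12 h library 2. The 48 h difference ranged from -1.80 without 48 h library 2 to -0.26 without 48 h library 1. A desmin-like fragment of 451 nucleotides was at 1.96 to 3.27 TPM in the controls, 0.19 to 1.21 TPM at 12 h and 0 to 1.82 TPM at 48 h, below the controls in all libraries of both later times. Its difference at 12 h was -1.17 (limma adjusted p 0.226).

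Skeletal muscle markers were read beside desmin. Of 8 such genes, 6 were matched in the table, and their summed level was 20.1 to 107.6 TPM at 0 h, 12.5 to 26.8 TPM at 12 h and 18.7 to 28.1 TPM at 48 h. The high value was control library 3, in which the creatine kinase gene ckm stood at 23.1 TPM against 0.15 and 0.24 TPM in the other controls and 0 TPM in 12 h library 1 and 48 h library 2. The troponin gene tnni2 was listed at 0 TPM in all 48 h libraries. Of the 5 muscle genes tested at 12 h against 0 h, 2 had a positive difference and 3 a negative one. By limma 1 was called lower, the troponin gene tnnc2 (-1.65 on the log2 scale, limma adjusted p 0.0371), beside 0.831% of all tested features. Its control levels were 12.4, 11.79 and 12.67 TPM, so it did not share the high value of control library 3. Desmin in control library 3, at 47.05 TPM, was still the highest of the controls, though by a far smaller margin than the muscle sum. The part of muscle RNA in the desmin values was not tested.

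The most abundant member was a type I keratin described as keratin 13-like (TRINITY_DN20118_c0_g1, 2173 nucleotides), which carries the Swiss-Prot name KRT19, so its exact mammalian counterpart is uncertain. It was at 1292, 1264 and 347.1 TPM in the controls, 423.3, 408.3 and 398.4 TPM at 12 h and 580.3, 427.9 and 257.9 TPM at 48 h. Control libraries 1 and 2 were high and control library 3 was below all 12 h libraries, so the groups overlapped. Its log2 difference was -1.01 at 12 h (SE 0.47, 95% interval -2.06 to 0.04, limma adjusted p 0.331) and -1.05 at 48 h (adjusted p 0.451). The 12 h difference turned on the controls, at -0.69 without control library 1, -0.71 without control library 2 and -1.64 without control library 3 (limma adjusted p 0.619, 0.602 and 0.0331). With control libraries 1 and 2 averaged it was -0.70 (limma adjusted p 0.627). The 48 h difference was -1.67 without control library 3 (limma adjusted p 0.0595) and -0.73 with the other controls averaged (adjusted p 0.862).

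Among the type II keratins, the usual partners of type I, the most abundant was a keratin 8-like feature (TRINITY_DN18848_c0_g4, 2779 nucleotides) whose Swiss-Prot match is the goldfish filament protein ON3. It was at 454.9, 410.6 and 383.0 TPM in the controls, 289.7, 295.5 and 303.4 TPM at 12 h and 460.4, 461.3 and 356.5 TPM at 48 h. Every 12 h library was below every control and every 48 h library. The differences did not pass the threshold, at -0.49 for 12 h against 0 h (SE 0.14, 95% interval -0.80 to -0.17, limma adjusted p 0.132) and 0.51 for 48 h against 12 h (95% interval 0.20 to 0.83, limma adjusted p 0.0877). The 12 h difference was -0.54 without control library 3 and -0.46 with control libraries 1 and 2 averaged (limma adjusted p 0.105 and 0.329).

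A further keratin 8-like feature carries the name krt8 (TRINITY_DN21204_c0_g1, 2008 nucleotides) and was at 144.8, 138.8 and 43.64 TPM in the controls. The 12 h libraries held 49.66, 32.86 and 38.94 TPM, and the 48 h libraries 83.79, 60.91 and 36.07 TPM. As for keratin 13-like, control libraries 1 and 2 were high and control library 3 lay among the 12 h libraries. Its difference at 12 h was -1.24 (SE 0.45, 95% interval -2.25 to -0.24, limma adjusted p 0.215). Without control library 1, 2 or 3 it was -0.95, -0.98 or -1.80 (limma adjusted p 0.462, 0.456 and 0.0355), and with control libraries 1 and 2 averaged -0.96 (adjusted p 0.477). Its difference at 48 h against 0 h was -0.74 (limma adjusted p 0.548), and -1.30 without control library 3 (adjusted p 0.0923).

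Keratin 18, the usual type I partner of keratin 8, was represented by features that behaved unlike each other. The longer one (TRINITY_DN21885_c0_g6, 1647 nucleotides, matched to a flounder protein) was at 39.11, 35.02 and 40.57 TPM in the controls, 21.95, 37.67 and 30.97 TPM at 12 h and 57.30, 43.02 and 25.29 TPM at 48 h. Its groups overlapped in all comparisons, with a difference of -0.36 at 12 h (limma adjusted p 0.601). The shorter one (TRINITY_DN23515_c0_g3, 1005 nucleotides, matched to Takifugu rubripes) was at 0.91, 0.47 and 0.13 TPM in the controls. The 12 h libraries held 2.5, 3.2 and 4.08 TPM and the 48 h libraries 0.19, 0.07 and 0.39 TPM, so every 12 h library was above every other library.

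The shorter keratin 18-like feature was the sole one of the 11 other members tested to be called in any comparison. It reached 1 TPM in the 12 h libraries alone, so it entered the fit only through the group where it was high and had to differ, and its limma values are a description that supports nothing about the family. Its difference of 48 h from 12 h was -1.80 on the log2 scale (SE 0.33, 95% interval -2.54 to -1.06, limma adjusted p 0.0328), where 1.68% of all tested features were called, 0.611% of them all as lower. All 48 h libraries lay below all 12 h libraries for 7.61% of tested features. Its difference at 12 h against 0 h was 1.52 (95% interval 0.78 to 2.26, limma adjusted p 0.0605). The levels correspond to an estimated 38, 52 and 62 reads at 12 h, 2 to 12 in the controls and 1 to 6 at 48 h. The call was lost when any one of several libraries was left out, with limma adjusted p values of 0.0606 without control library 2, 0.11 and 0.144 without 12 h libraries 2 and 3, and 0.0762, 0.121 and 0.0759 without 48 h libraries 1, 2 and 3. It held in 8 of 17 alternatives. Over the 9 libraries its log2 level had a Pearson correlation of -0.967 with that of vim, given as a description across libraries that share the 3 time points.

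**Figure D2:**
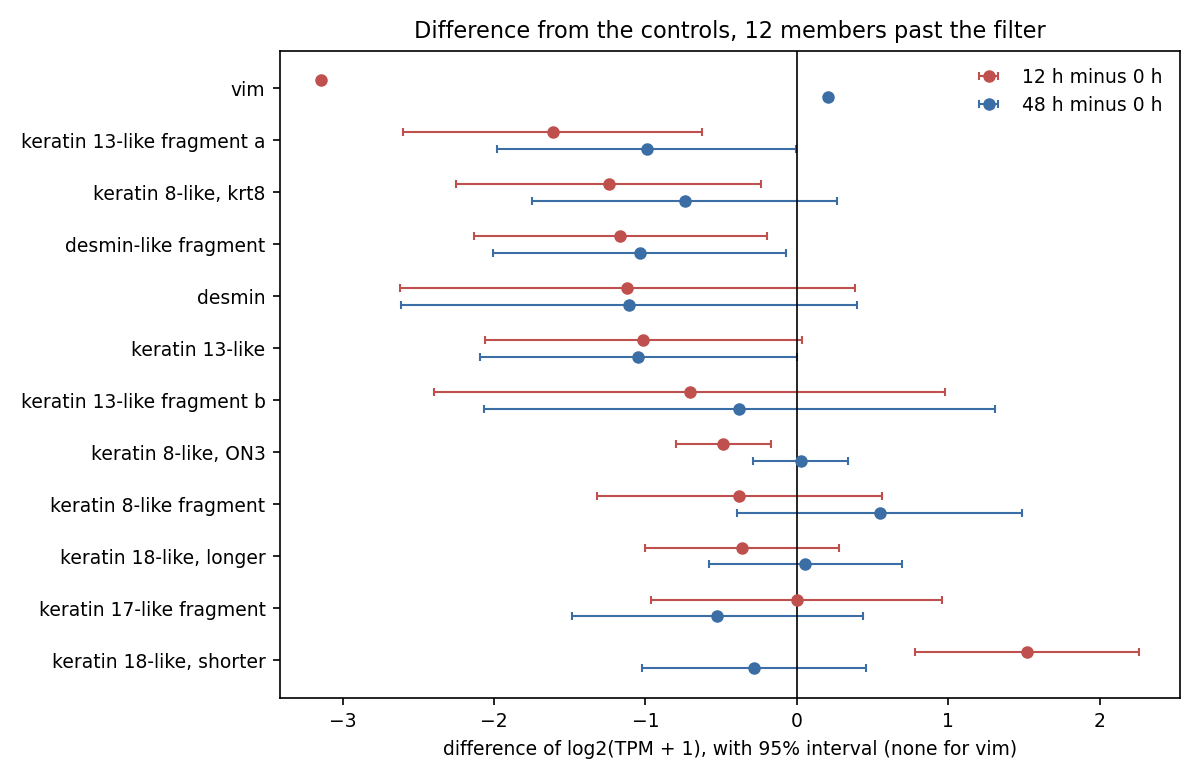
Difference from the controls in log2(TPM + 1) (horizontal axis) at 12 h and 48 h for the 12 members past the low-value filter (vertical axis), with 95% intervals from limma for all but vim. Differences at 12 h run from -3.14 for vim to 1.52 for the shorter keratin 18-like feature, and both colours share the same controls.

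The remaining members were short fragments under 500 nucleotides at no more than 5.56 TPM in any library. A keratin 13-like fragment of 214 nucleotides was at 3.75 to 5.19 TPM in the controls, 0 to 1.95 TPM at 12 h and 0.89 to 2.91 TPM at 48 h, below the controls in all later libraries, with a difference at 12 h of -1.61 (limma adjusted p 0.115). The keratin 8-like fragment of 386 nucleotides was at 0.53 to 3.71 TPM and the keratin 17-like fragment at 0.27 to 2.2 TPM, with groups that overlapped at 12 h and 0 h. A further 3 keratin 13-like fragments belong to 1 assembly cluster and so may be pieces of 1 transcript. Their summed level was 8.0 TPM in control library 3 and 13.62 TPM in 48 h library 3, and no more than 1.99 TPM in the other libraries. Of these 3, 2 fell short of the low-value filter, which left 12 of the 14 members in the fit.

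Of the 13 members other than vim, 11 were tested at 12 h against 0 h, and 0 were called by limma, where 1.42% of all tested features were (0.592% higher and 0.831% lower). The unadjusted p was under 0.05 for 5 of the 11, and for 15.9% of all tested features. Of the 11, 10 had a negative difference and 1 a positive one, with a median of -0.71 beside a median of -0.07 over all tested features. The 10 include the keratin 17-like fragment, whose difference was -0.0006. The 12 h libraries were all below the controls for 4 of the 11, where this held for 12.7% of all tested features, and all above for 1, where it held for 8.25%. At 48 h against 0 h, 0 of the 11 were called by limma, where 0.011% of all features were, 2 had an unadjusted p under 0.05, as had 11.1% of all features, and the median was -0.53 beside 0.13. There the 48 h libraries were all below the controls for 2, the desmin-like fragment and the keratin 13-like fragment of 214 nucleotides, where this held for 3.95% of all features. Between 12 h and 48 h, 1 was called lower and 0 higher, where 0.611% of all features were called lower and 1.07% higher. The 1 called reached 1 TPM in the 12 h libraries alone. The unadjusted p was under 0.05 for 2 of the 11, and for 21.5% of all features. In that comparison the median was 0.33 beside 0.21. The 48 h libraries were all above the 12 h libraries for 2 members, where this held for 20.5% of all features. They were all below for 1, where this held for 7.61%. Since the members that pass a filter on low values include those that pass through 1 group alone, these counts describe 11 features and not the family.

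**Figure D3:**
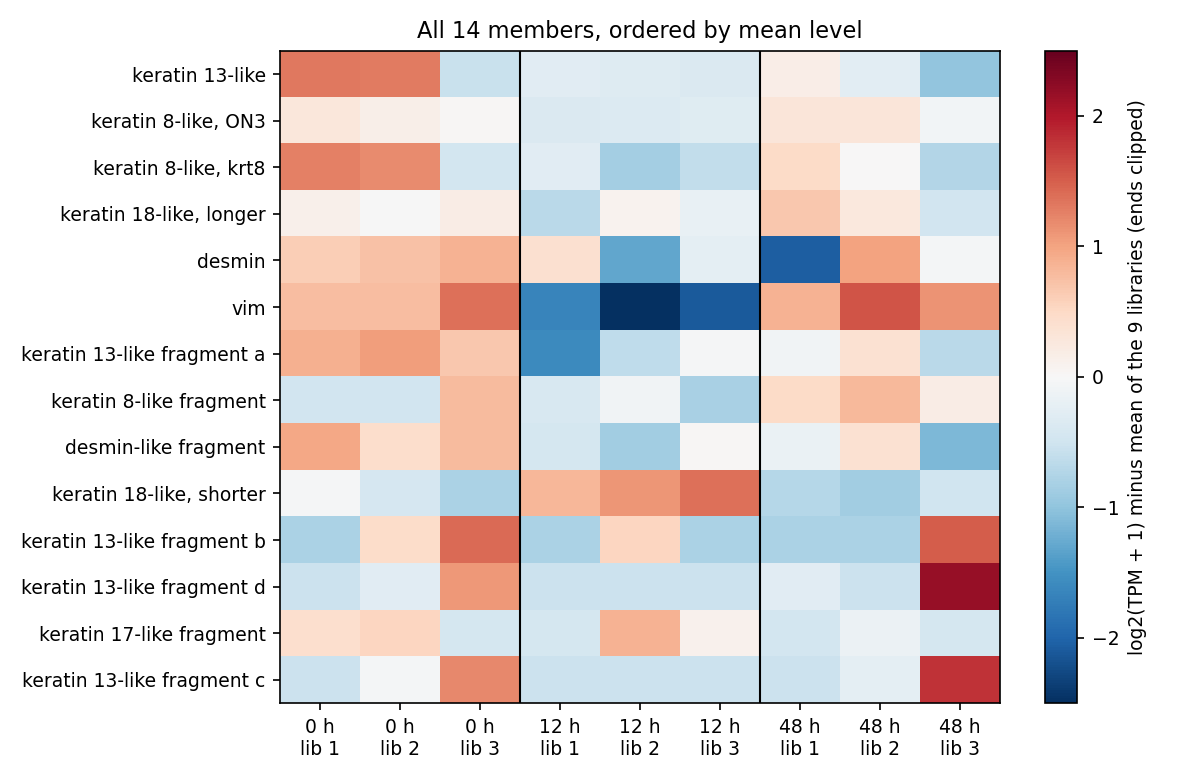
Heat map of log2(TPM + 1) minus the member's own mean over the 9 libraries (colour, clipped at the ends), with the 14 members as rows in order of mean level and the libraries as columns. The row of vim is low in the 3 libraries at 12 h, the row of the shorter keratin 18-like feature is high in them, and the rows of keratin 13-like fragments b, c and d are high in control library 3 and 48 h library 3.

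In all, the type I keratins summed to 1338, 1309 and 399.8 TPM in the controls, 448.0, 453.8 and 436.3 TPM at 12 h and 640.1, 474.7 and 298.4 TPM at 48 h. The type II keratins summed to 600.6, 550.3 and 430.3 TPM, then 340.4, 329.9 and 342.9 TPM, then 547.0, 526.0 and 394.6 TPM at the same times. Thus the type II sum at 12 h was below all other libraries, whereas the type I sum of control library 3 lay below the 12 h libraries. The ratio of type I to type II was 2.23 and 2.38 in control libraries 1 and 2, 0.93 in control library 3, 1.27 to 1.38 at 12 h and 0.76 to 1.17 at 48 h. The keratin 13-like feature made up 86.4% to 96.6% of the type I sum, and the ON3-matched feature 74.6% to 90.3% of the type II sum.

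Members did not all vary together across the 9 libraries. The log2 levels of keratin 13-like and the krt8 feature had a Pearson correlation of 0.942, and their ratio stayed between 6.93 and 12.4, being 7.95 in control library 3. Keratin 13-like and the ON3-matched feature had a correlation of 0.498. With vim the correlation was 0.858 for the ON3-matched feature, 0.189 for keratin 13-like and 0.381 for desmin. These correlations are descriptions over libraries that share 3 groups, and vim made up 0.73% to 2.51% of the 14 members' summed level in the controls, 0.0453% to 0.227% at 12 h and 1.30% to 2.53% at 48 h.

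**Figure D4:**
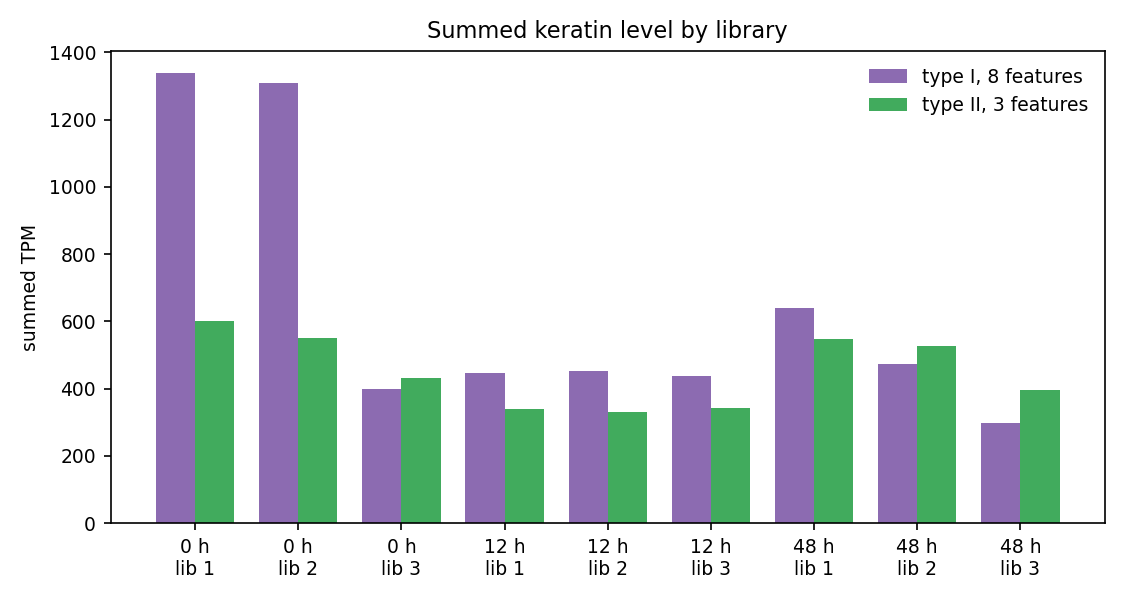
Summed level in TPM (vertical axis, from 0) of the 8 type I and the 3 type II keratin features in each of the 9 libraries (horizontal axis). The type I sum is 1338 and 1309 TPM in control libraries 1 and 2 and 298 to 640 TPM in the other 7 libraries.

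Marker genes of cell types found in kidney were summed beside the members, and some of the sums differed between groups. Of 5 podocyte genes, 5 were matched, and they summed to 102.5 to 119.8 TPM at 0 h, 47.4 to 54.9 TPM at 12 h and 73.6 to 151.8 TPM at 48 h, with the 12 h libraries lowest, as for vim. Of them 1 was called lower at 12 h against 0 h and 2 higher at 48 h against 12 h by limma, where 0.831% and 1.07% of all tested features were. The podocyte gene wt1 did not fall at 12 h, with a log2 difference of 0.10 from 0 h. Of 8 proximal tubule genes, 7 were matched and summed to 186.5 to 472 TPM, 83.6 to 117.8 TPM and 142 to 267.2 TPM. Here too the 12 h libraries were lowest, so the likeness to vim was not particular to podocyte genes. All 7 had a negative difference at 12 h against 0 h and a positive one at 48 h against 12 h. By limma 3 of the 7 were called lower at 12 h against 0 h, beside 0.831% of all tested features. Control library 3 had the lowest proximal tubule sum of the controls, 186.5 TPM, and it had the lowest keratin 13-like level of the controls too. Endothelial markers, 6 of 7 matched, summed to 64.8 to 106.6 TPM, 78.9 to 81.5 TPM and 107.4 to 122.8 TPM, so the sum at 12 h lay within the controls. Its members went different ways. At 12 h against 0 h, 4 of the 6 had a negative difference and 2 a positive one. By limma 0 were called, where 1.42% of all tested features were. The difference was -0.69 for cdh5 and 0.80 for pecam1 (limma adjusted p 0.0737 and 0.0992). The most abundant, egfl7, was at 59.08 TPM in control library 3 against 23.56 and 21.19 TPM in the other controls.

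Fibroblast markers, 6 of 6 matched, summed to 158.7 to 170.7 TPM at 0 h, 117.5 to 135.2 TPM at 12 h and 103.2 to 141 TPM at 48 h. Decorin (dcn) was the most abundant, with a mean of 84 TPM. At 12 h against 0 h, 4 had a negative difference and 2 a positive one. The collagen genes col1a1 and col1a2 differed by -1.33 and -1.62, and pdgfra and lumican (lum) by 1.03 and 1.51. By limma 0 were called, beside 1.42% of all tested features. Monocyte and macrophage markers, 2 of 5 matched, summed to 240.7 to 280.3 TPM, 157.7 to 224.4 TPM and 159.2 to 218.2 TPM. This sum joins unlike courses. The mannose receptor gene mrc1 averaged 91.5, 49.5 and 94.3 TPM, with its 12 h libraries lowest, as for vim. It was called lower at 12 h against 0 h and higher at 48 h against 12 h (limma adjusted p 0.0179 and 0.015), where 0.831% and 1.07% of all tested features were. The other marker, mpeg1, averaged 171.2, 142.7 and 101.5 TPM and was not called. T cell markers, 3 of 6 matched, summed to 34.9 to 231.3 TPM, 33.9 to 97.7 TPM and 119.4 to 131.9 TPM. Surface epithelium markers, 4 of 6 matched, summed to 159.1 to 344.9 TPM, 296.4 to 357.6 TPM and 163.5 to 319.9 TPM, and erythroid markers, 3 of 5 matched, to 10660 to 35780 TPM, 5497 to 6008 TPM and 2200 to 9226 TPM, with the highest sum in control library 3. The fibroblast marker lum was read from a fragment of 219 nucleotides and was listed at 0 TPM in 2 controls and 2 libraries at 48 h. The epithelial marker envoplakin (evpl), from a fragment of 204 nucleotides, was at 0 TPM in 12 h library 2. A value of 0 for such short features does not show that the gene was silent. No podocyte or proximal tubule marker matched was at 0 in any library. The part of changed cell shares in the levels of vim and the keratins was not tested.

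Genes that work with intermediate filaments, or mark the cells that make vimentin, were counted from lists. Of 22 mesenchymal and matrix genes tested, 0 were called higher and 2 lower at 12 h against 0 h by limma. Of all tested features, 0.592% were called higher and 0.831% lower. The median was -0.36 beside -0.07 over all tested features, with 14 negative and 8 positive differences. The unadjusted limma p was under 0.05 for 11, and for 15.9% of all tested features. The collagen VI chain gene col6a2, part of the mesh around cells, fell from 29.9 ± 7.81 to 12.3 ± 2.85 TPM (log2 difference -1.22, limma adjusted p 0.0345). The matricellular protein gene sparc fell from 78.4 ± 8.82 to 37.5 ± 2.61 TPM (-1.04, limma adjusted p 0.0462), and the collagen I chain gene col1a2 had a difference of -1.62 with limma adjusted p 0.0869. The growth factor receptor gene pdgfra had the smallest adjusted p of the positive differences (1.03, limma adjusted p 0.128). The calls of col6a2 and sparc at 12 h held in 7 and 6 of 18 alternatives. The col6a2 call was lost without control library 1 or 2, 12 h library 2 or 3, or 48 h library 2 or 3 (limma adjusted p 0.0563 to 0.135), and the sparc call without control library 1 or 2, any 12 h library or 48 h library 2 (0.0708 to 0.168). With control libraries 1 and 2 averaged the limma adjusted p was 0.1 for col6a2 and 0.172 for sparc. Between 12 h and 48 h, 1 of the 22 was called higher, col6a2 (1.16, limma adjusted p 0.0355), and 0 lower. Of all tested features, 1.07% were called higher and 0.611% lower. The median was 0.54 beside 0.21 over all tested features, with 15 positive and 7 negative differences. The unadjusted limma p was under 0.05 for 19, beside 21.5% of all tested features. Those 19 went both ways, with fn1 (fibronectin), lum, timp2, cdh2 (cadherin-2), dcn and pdgfra lower at 48 h. The col6a2 call at 48 h against 12 h held in 7 of 18 alternatives. Of the single libraries left out, control library 3 and 12 h library 1 were those whose removal kept it (limma adjusted p 0.0546 to 0.135 otherwise). Against 0 h, 0 of the 22 were called at 48 h by limma, where 0.011% of all tested features were. The unadjusted limma p was under 0.05 for 3, and for 11.1% of all tested features. In that comparison decorin (dcn), a collagen-binding proteoglycan, had the smallest limma adjusted p (difference -0.62, adjusted p 0.409).

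Kinases, proteases and binding partners of vimentin had 18 genes tested. At 12 h and at 48 h against 0 h, 0 were called by limma, with medians of -0.08 and 0.25, beside -0.07 and 0.13 over all tested features. The unadjusted limma p was under 0.05 for 1 and 7 of them, and for 15.9% and 11.1% of all tested features. Between 12 h and 48 h, 2 rose and 0 fell, where 1.07% of all tested features were called higher and 0.611% lower. The median was 0.41 beside 0.21 over all tested features. The actin cross-linker filamin A (flna), which binds vimentin in mammalian cells, rose from 87.6 ± 4.45 to 137 ± 7.80 TPM (0.64, limma adjusted p 0.0413). The kinase gene prkca, whose product phosphorylates vimentin in mammals, rose from 6.46 ± 0.329 to 13.97 ± 2.66 TPM (0.99, limma adjusted p 0.0446). The calls of flna and prkca held in 5 and 4 of 18 alternatives. Both were lost when any single library except control library 3 was left out, with limma adjusted p of 0.0583 to 0.146 for flna and 0.0559 to 0.159 for prkca.

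Genes that tie keratins and desmin to junctions had no calls. Of 14 plakin and desmosome genes tested, 0 were called in any of the 3 comparisons by limma. Of all tested features, 1.42%, 0.011% and 1.68% were called in that order. The medians of the 14 were 0.02, -0.41 and -0.52, beside -0.07, 0.13 and 0.21 over all tested features. The unadjusted limma p was under 0.05 for 0, 1 and 4 of the 14, and for 15.9%, 11.1% and 21.5% of all tested features. The smallest adjusted p was that of plakophilin 4 (pkp4) at 48 h against 12 h, with a difference of -1.04 (limma adjusted p 0.0836). The cytoskeletal linker plectin (plec) had a difference of -1.24 in that comparison (limma adjusted p 0.129), from 15.1, 49.1 and 34.1 TPM at 12 h to 12.1, 12.1 and 11.6 TPM at 48 h. It was read from a partial feature of 1466 nucleotides, 1 of 8 that matched plec. Of 15 epithelial junction genes, 0 were called in any comparison, beside the same shares of all tested features. Their medians were -0.05, -0.42 and -0.46 in the same order, beside -0.07, 0.13 and 0.21 over all tested features. The unadjusted limma p was under 0.05 for 2, 2 and 4, beside 15.9%, 11.1% and 21.5% of all tested features. The epithelial transcription factor gene grhl2 had the smallest adjusted p at 12 h (-1.56, limma adjusted p 0.165), at levels of 0 to 3.92 TPM.

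The lamins, which form the nuclear branch of the family, and other filament genes outside the membership rule gave 7 genes of 16 listed. By limma 0 were called, where 1.42%, 0.011% and 1.68% of all tested features were, in the same order. The medians were -0.02, 0.23 and 0.28, beside -0.07, 0.13 and 0.21 over all tested features. The unadjusted limma p was under 0.05 for 0, 1 and 1, beside 15.9%, 11.1% and 21.5% of all tested features. The B-type lamin gene lmnb2 was at 45.5 ± 8.94 TPM in the controls, and its difference at 48 h against 12 h was 0.40 (limma adjusted p 0.228). At 12 h against 0 h the smallest limma adjusted p among the 7 was 0.368, that of krt222, a keratin-like gene with a difference of -0.72.

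The features whose pattern was most like that of vim were ranked by Pearson correlation of log2(TPM + 1) over the 9 libraries, among 11329 features with a fish match, an informative description and a mean of at least 5 TPM. This set was chosen otherwise than the one used to compare libraries, which rested on mean level alone. The leading 6 were iduronate 2-sulfatase, a lysosomal enzyme (0.996), a rap guanine nucleotide exchange factor 3-like feature (0.994), a rap1 GTPase-activating protein 2-like feature (0.993), F-box only protein 10 (0.988), the transcription factor NF-E2 45 kDa subunit (0.987) and lysosome membrane protein 2 (0.986). The exchange factor was at 24.64, 28.50 and 37.09 TPM in the controls, 9.65, 5.03 and 6.29 TPM at 12 h and 27.87, 33.96 and 28.71 TPM at 48 h. The log2 differences of the 6 at 12 h against 0 h ran from -1.98 to -0.85, each smaller in size than that of vim. Since vim was singled out for its low 12 h level and the 6 for their likeness to it, this is a description. The correlations are a ranking over 9 libraries in 3 groups and depend on how far the 12 h libraries lie from the rest.

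**Figure D5:**
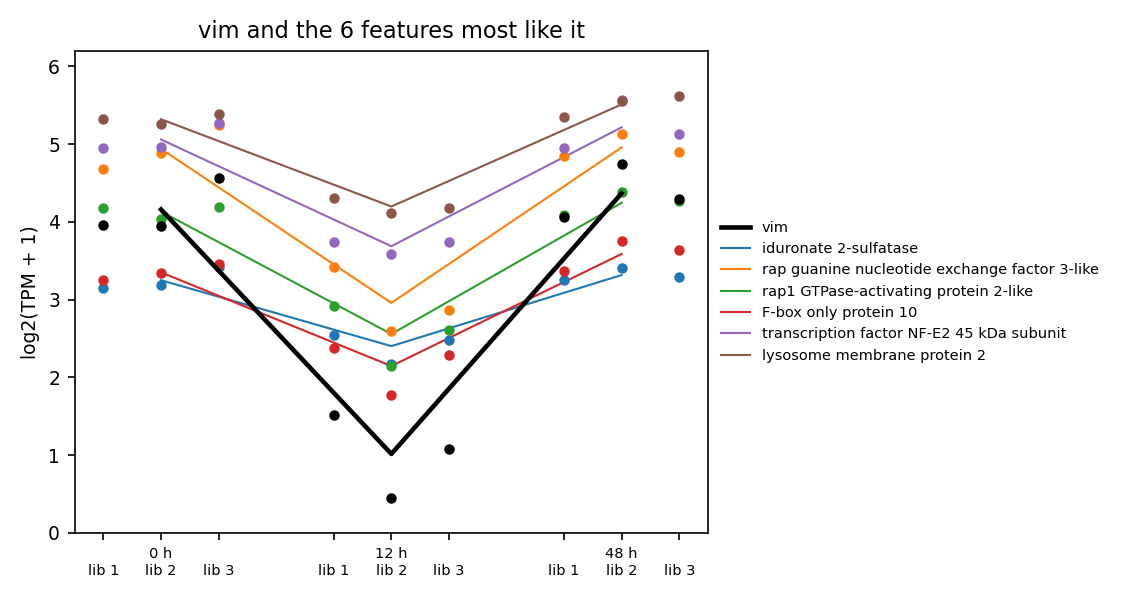
Log2(TPM + 1) (vertical axis) of vim and the 6 features with the highest correlation to it in each of the 9 libraries (points), with lines joining the group means. All 7 are lower in the 12 h libraries, and vim has the greatest difference of 12 h from 0 h, -3.14 against -1.98 to -0.85 for the others. Both points follow in part from choosing vim for its low 12 h level and the others for their likeness to it.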

How the data were processed

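RNA was extracted from kidney with Trizol and made into Illumina libraries, per the labels' protocols. A single table of 46444 features was deposited, whose 9 value columns are named as in the samples' descriptions. Its header names no unit. The authors' values were read as TPM because the columns total 993873 to 996068, and 94.7% to 97.8% of low values lie within 0.1 of a whole number of read steps once feature length is allowed for. Feature names are those of a de novo Trinity assembly, and the tools behind the values are not given in the sources used here. No sequence is shown, since no reference was used.

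Groups come from the labels. Of these, 45473 features reached 1 TPM in 3 or more libraries and were fitted as log2(TPM + 1) in limma 3.58.1 (R 4.3.3). The fit had a coefficient for each of the 3 groups, used all 9 libraries and was moderated with the trend and robust options. Tests are two-sided, with Benjamini-Hochberg adjustment over all features tested. The fit was tested on simulated data. Members and lists were chosen with earlier results of these data known. Members other than vim are named where their mean is at least 5 TPM or they are called, and short fragments by their ranges. Of each list the called genes are named, or else the few with the smallest adjusted p. Symbols in the lists come from the table's own annotation of features with a fish match, so paralogues can share a symbol. The feature with the highest mean was used where several matched. The labels do not say that equal replicate numbers pair libraries, and the deviations of same-numbered libraries from their group means correlated at -0.0977 to 0.152 over 9 pairs.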

Additional observations from a re-analysis of the deposited data

Results flagged for a closer look

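Leaving out vim, which carries no test, and the cell type markers, the effects at 12 h and 48 h differed for 4 genes named above. This was by the direct test of 48 h against 12 h, and the effects share the controls. Among the markers, mrc1 and 2 podocyte genes were called higher in that comparison too. The shorter keratin 18-like feature differed by -1.80 on the log2 scale (limma adjusted p 0.0328), high at 12 h and low at 0 h and 48 h. It passed the low-value filter only through its 12 h libraries, and the adjusted p was 0.0606 to 0.144 without control library 2, 12 h library 2 or 3, or any 48 h library. The matrix gene col6a2 differed by 1.16 (limma adjusted p 0.0355), the kinase gene prkca by 0.991 (limma adjusted p 0.0446) and the cross-linker gene flna by 0.643 (limma adjusted p 0.0413). The calls of col6a2, prkca and flna held in 7, 4 and 5 of 18 alternatives. The keratin 18-like feature was the sole one of the 4 with the lower level at 48 h.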

How the results depend on the processing

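The difference of vim at 12 h against 0 h was -3.14 and ranged from -3.40 to -2.86 with 1 library left out, and that of 48 h against 12 h was 3.35 and ranged from 3.07 to 3.61. A pseudocount of 0.1 gave -4.04 and 4.26, and the sum with the mammal-matched vimentin features gave -2.49 and 2.31. The 48 h difference of vim from 0 h was 0.209 and lay between 0.0177 and 0.412 with 1 library left out, while for the sum it was -0.184, of the other sign.

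Of the members other than vim, 0 were called at 12 h against 0 h. The count was 1 with quantile normalization and 1 without the trend, both times the shorter keratin 18-like feature (adjusted p 0.0432 and 0.0475), and 0 to 2 with 1 library left out, the 2 being keratin 13-like and the krt8 feature without control library 3. The count for 48 h against 0 h was 0 under all alternatives run. For 48 h against 12 h the count of 1 became 0 at an adjusted p under 0.01, with a filter of 5 TPM, with a pseudocount of 0.1 (adjusted p 0.0831), with the replicate number as a block (adjusted p 0.0688) and with control libraries 1 and 2 averaged and 12 h library 3 left out (adjusted p 0.19), and was 0 to 1 with 1 library left out.

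Over all features, 647 were called at 12 h against 0 h, and the count was 61 at an adjusted p under 0.01, 326 without the trend, 284 with the replicate block, 235 with only the compared groups, 60 with control libraries 1 and 2 averaged and 8 when 12 h library 3 was dropped too. It was 50 to 880 with 1 library left out, with the lowest without control library 1. For 48 h against 0 h the 5 calls became 3 at an adjusted p under 0.01, 0 without the trend, 3 with a pseudocount of 0.1, 3 with the replicate block, 0 with the controls averaged and 12 h library 3 left out, and 0 to 78 with 1 library left out. The 763 calls at 48 h against 12 h became 35 at an adjusted p under 0.01, 458 without the trend, 1364 with a filter of 5 TPM, 285 with the replicate block, 429 with the controls averaged, 2 with both steps together, and 34 to 2449 with 1 library left out. Quantile normalization changed the split of those calls from 485 higher and 278 lower to 264 higher and 358 lower, and moved the median difference of all features from 0.21 to 0.04. The cause of these changes was not tested. Whether the replicate numbers pair the libraries is not given, and correlations of deviations with 3 libraries a group cannot settle it. Of 9 same-numbered pairs, 1 had a correlation above 0.1, that of the 12 h and 48 h libraries 1 at 0.152. A pair of unlike numbers, control library 3 with 12 h library 1, reached 0.148. With the block no other member's call changed. Precision is limited by 3 libraries a group and, for vim at 12 h and the shorter keratin 18-like feature, by the few reads behind each value.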
